A study of Mus musculus with 12 samples.

Results

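The insulin and insulin-like growth factor (IGF) signalling genes described here are 10 genes of the 27825 in the deposited table, matched by their symbols: the ligands Igf1 and Igf2, the receptors Insr and Igf1r, the receptor adaptors Irs1 and Irs2, and the IGF binding proteins Igfbp3, Igfbp4, Igfbp5 and Igfbp7. They were chosen by name and pathway, with earlier results of these data known, and each symbol matched 1 row. The study asked how an obesogenic diet alters endothelial cells, the cells that line vessels, in different vascular beds of the mouse. Bulk RNA-seq libraries were made from cells sorted for a yellow fluorescent protein out of the mesentery, the sheet of tissue through which vessels reach the gut, or out of epididymal fat pads. All groups were male ROSA26-eYFP+/+ Cdh5-CreERT2+ mice, in which tamoxifen switches on the reporter in cells where the promoter of Cdh5, the gene of the endothelial junction protein VE-cadherin, has driven Cre. Every group ate tamoxifen diet from 6 weeks of age for 2 weeks, and then, from 8 weeks of age and for 12 to 13 weeks, either normal chow (5.8% fat) or high fat food, abbreviated HFD (60% fat). The 12 libraries form 4 groups of 3, each library from the pooled tissue of 6 mice: mesentery on chow, mesentery on HFD, epididymal fat on chow and epididymal fat on HFD. The submitters speak of 2 independent replicates, while the titles give letters A, B and C and the descriptions pool numbers 50 to 53, 87 and 88. How these relate is not stated, so p-values measure the spread between libraries, part of which may be technical.

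Insulin and IGF1 act through the related receptor tyrosine kinases encoded by Insr and Igf1r, which phosphorylate the adaptor proteins IRS1 and IRS2. These recruit phosphoinositide 3-kinase and activate AKT, which in turn restrains FOXO transcription factors and feeds the mTOR growth pathway. The IGF binding proteins hold IGFs outside the cell and are opened by proteases, and IGFBP7 binds IGFs only weakly. In endothelial cells insulin signalling is known for activating nitric oxide synthase and for carrying insulin from blood to tissue.

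Igf1, Igfbp3 and Igfbp7 were the members that differed between the 2 tissues on both diets, and the start regions of these 3 genes are shown for that reason. Each is the RefSeq promoter window of 300 bases that ends 50 bases after the annotated start, on build GRCm38.p6 and on the gene's own strand, 5′ to 3′, with every CG pair in capitals. Igf1 lies at chr10:87860861-87861160 on the plus strand, Igfbp3 at chr11:7213874-7214173 on the minus strand and Igfbp7 at chr5:77407996-77408295 on the minus strand.
Igf1: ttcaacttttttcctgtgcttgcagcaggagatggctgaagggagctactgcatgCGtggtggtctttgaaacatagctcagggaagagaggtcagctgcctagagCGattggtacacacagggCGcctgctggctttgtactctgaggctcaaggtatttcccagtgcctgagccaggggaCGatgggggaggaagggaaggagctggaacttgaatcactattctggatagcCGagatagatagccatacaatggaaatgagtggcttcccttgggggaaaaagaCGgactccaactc
Igfbp3: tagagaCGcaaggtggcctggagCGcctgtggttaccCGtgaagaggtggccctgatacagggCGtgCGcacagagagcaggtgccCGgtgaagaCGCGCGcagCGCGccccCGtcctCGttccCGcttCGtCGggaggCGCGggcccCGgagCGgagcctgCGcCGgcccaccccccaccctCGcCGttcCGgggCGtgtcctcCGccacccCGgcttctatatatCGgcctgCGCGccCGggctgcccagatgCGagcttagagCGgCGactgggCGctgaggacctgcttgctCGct
Igfbp7: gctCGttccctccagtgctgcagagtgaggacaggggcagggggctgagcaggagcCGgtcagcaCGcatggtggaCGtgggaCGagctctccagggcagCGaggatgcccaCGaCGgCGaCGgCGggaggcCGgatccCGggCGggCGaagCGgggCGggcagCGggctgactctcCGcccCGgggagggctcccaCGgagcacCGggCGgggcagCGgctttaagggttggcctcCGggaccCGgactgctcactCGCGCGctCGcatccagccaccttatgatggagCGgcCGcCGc
The Igf1 window held 6 CG pairs, close to the median of 7 over the 32851 promoter windows in the table, of which 56.4% held as many or more. Igfbp3 had 37 CG pairs, a number reached by 5.58% of windows, and Igfbp7 had 33, reached by 8.56%. CG pairs did not sort with direction over the members, since Irs2, Igfbp4 and Igfbp5, which were higher in epididymal fat on chow, had 41, 27 and 10. These numbers describe the letters only. The motif TATAAA, searched on both strands, was in 13.6% of all windows and in none of these 3. Of the 10 members, 9 had an entry in the promoter table; Insr had none.

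Depth was between 8348897 and 25397963 reads per library, and 3 reads, taken as the floor of detection, corresponded to 2.12 to 4.22 normalized counts. Such floors allow for counting error alone. The sorted cells carried endothelial markers in every library: in mean normalized counts Cdh5 was at 3842 ± 1097 in mesentery on chow, 2835 ± 138 there on HFD, 3804 ± 639.8 in epididymal fat on chow and 3119.7 ± 1319.8 there on HFD (± SD, n = 3). The sum of 16 pan-endothelial markers was 147381 to 223271 and 140590 to 163810 in the mesentery groups (chow, then HFD), against 100775 to 119017 and 55582 to 105014 in the epididymal groups. Markers of other cell types were present as well. Pancreatic acinar markers summed to 28059.8 or more in every mesentery library and to at most 576 in epididymal libraries, while macrophage, fibroblast and smooth muscle markers were higher in epididymal fat, as given beside the results they move with. Red blood cell markers summed to 177 to 411 in mesentery libraries and 31944 to 44020 in epididymal ones, with all 4 tested genes called higher on both diets. Library A of mesentery on chow had 20.6% of its reads on mitochondrial genes, against 2.50% to 11.5% elsewhere. Of the tested genes, 12.8% differed between tissues on chow and 8.34% on HFD, whereas 0.0135% differed between diets in mesentery, 0.549% in epididymal fat, and 0.0045% in the size of the diet effect (limma on log2(normalized count + 1), adjusted p under 0.05). All differences below are log2 differences on that scale, where changes of genes with low counts come out too small. In bulk samples fewer cells of a type and less RNA per cell cannot be told apart.

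**Figure D1:**
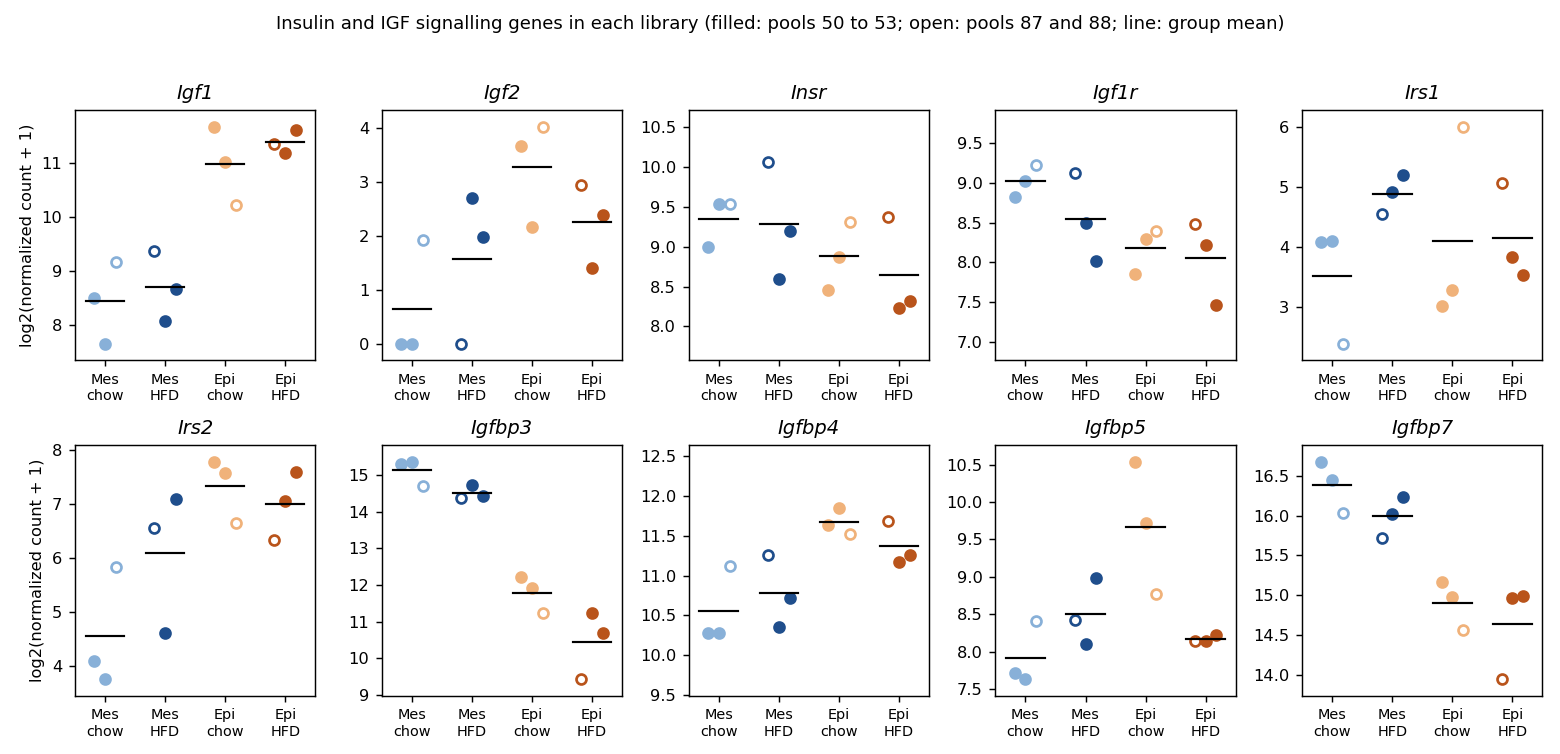
Each panel plots 1 gene as log2(normalized count + 1) on its own axis range for the 12 libraries in 4 groups of 3 (Mes, mesentery; Epi, epididymal fat; HFD, high fat diet). Points are libraries, filled for pool numbers 50 to 53 and open for 87 and 88, and lines are group means. The epididymal points lie above all mesentery points for Igf1 and below all of them for Igfbp3 and Igfbp7.

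Of the ligand members Igf1 and Igf2, only Igf1 had a clear level in these libraries. Igf1 was higher in epididymal fat than in mesentery on either diet. In mesentery it measured 362, 201 and 570.2 normalized counts in chow libraries A, B and C and 657, 267 and 406 in HFD libraries A, B and C. The epididymal libraries gave 3241, 2062 and 1196 on chow and 2581, 2314 and 3126 on HFD. The lowest epididymal library thus exceeded the highest mesentery library, and the diets overlapped within each tissue. Group means were 378 ± 185 and 443 ± 197 in mesentery (chow, then HFD), and 2166 ± 1026 and 2674 ± 414 in epididymal fat (SD, n = 3). On chow the log2 difference between tissues was 2.53 (SE 0.42, 5.76-fold, adjusted p = 0.00155), and on HFD it was 2.67 (SE 0.42, 6.38-fold, adjusted p = 0.00163). Within pool numbers 50 to 53 these differences were 3.26 and 3.02, and the single libraries of pools 87 and 88 differed by 1.07 and 1.97. Neither diet contrast passed the test for Igf1, with 95% intervals of -0.64 to 1.16 in mesentery and -0.49 to 1.31 in epididymal fat.

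Markers of macrophages and fibroblasts, cells known to express Igf1, differed between tissues too. The 12 macrophage and leukocyte markers summed to 1644 to 8198 normalized counts in mesentery on chow and 4657 to 25150.2 on HFD. In epididymal fat the sums were 6419 to 88301 on chow and 139130 to 350123 on HFD, and 5 of the 12 genes were called higher than in mesentery on chow and 8 on HFD. The 10 fibroblast markers, of which 8 and 10 were called higher in epididymal fat, ranged from 7161 to 10788 and 5073 to 10862 in mesentery (chow, then HFD) to 19816 to 59656 and 52615 to 68658 in epididymal fat. No gene of either list was at 0 throughout a group. Mesothelial markers, with 5 and 2 of 7 called higher, summed to 197 to 353 and 266 to 325 in mesentery and 1289 to 1919 and 443 to 851 in epididymal fat (chow, then HFD), and the red blood cell sums given above had the same direction. Wt1 was the mesothelial marker at 0 in all 3 libraries of mesentery on chow. Between the epididymal groups the macrophage sums did not overlap and the Igf1 levels given above overlapped. None of the 12 macrophage and leukocyte genes passed the diet test there. The part of these cells in the Igf1 difference was not tested.

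Igf2, the fetal growth ligand, had few reads in every group, at most 15 in a library. It measured 0, 0 and 2.82 normalized counts in mesentery on chow and 0, 5.54 and 2.96 on HFD. Epididymal libraries gave 11.7, 3.48 and 15.3 on chow and 6.75, 1.65 and 4.25 on HFD. The chow groups did not overlap, but the gene averaged under 10 normalized counts, the minimum for entering the test, so no fold or p is given.

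The insulin genes Ins1 and Ins2, whose hormone is made by pancreatic beta cells, were read in mesentery and at or near 0 in epididymal fat. Ins2 measured 857, 789 and 59.1 normalized counts in mesentery on chow and 542, 588 and 302 on HFD, while epididymal libraries gave 0, 0 and 5.11 and 5.62, 0 and 0. Ins1 measured 215, 177 and 15.5 and 185, 128 and 89.9 in the same mesentery groups and at most 8.99 in epididymal libraries. Library C of mesentery on chow, from pool 87, was the lowest of the mesentery libraries for both genes. For Ins2 the log2 difference of epididymal fat from mesentery was -7.56 on chow (SE 1.13, adjusted p = 7.71e-04) and -7.93 on HFD (SE 1.13, adjusted p = 8.03e-04). Ins1 differed by -5.36 on chow (SE 1.19, adjusted p = 0.0099) and -5.05 on HFD (SE 1.19, adjusted p = 0.0199). The Ins1 call on chow was lost without mesentery library A (adjusted p = 0.0613) or B (0.0501). On HFD it was lost with edgeR (adjusted p = 0.0568), without epididymal library B (0.0561) or C (0.0981), and without mesentery library A (0.0774) or B (0.0778). Single libraries and settings also moved the sizes. The Ins2 difference on chow was -6.90 without mesentery library A, -6.96 without B, -8.82 without C and -8.43 without epididymal library C, and it ran from -9.69 within pools 50 and 51 to -5.80 with a pseudocount of 5. On HFD Ins2 was at -8.84 without epididymal library A, -8.72 within pools 52 and 53, -8.64 with a pseudocount of 0.5 and -6.17 with one of 5. For Ins1 the chow value was -4.70 without mesentery library A, -6.55 without C and -6.43 without epididymal library C, and it ran from -7.62 within pools 50 and 51 to -3.76 with a pseudocount of 5. Its HFD value was -5.73 without epididymal library A, -4.46 without C and -3.99 with a pseudocount of 5. The genes are closely related copies and some reads may be split between them, so each value alone is uncertain. Pancreatic acinar markers followed the same libraries, with sums of 28059.8 to 187082 and 59135 to 109001 in mesentery and 199 to 305 and 437 to 576 in epididymal fat, and all 11 were called lower there on both diets. Library C of mesentery on chow again had the lowest mesentery sum. Of 5 tested markers of pancreatic islets, which hold the beta cells, the 2 called lower in epididymal fat were Ins1 and Ins2 themselves. The islet genes Iapp, Gcg and Chga did not pass (adjusted p = 0.134, 0.24 and 0.958 on chow, and 0.379, 0.792 and 0.412 on HFD). Iapp measured 43.01 to 64.9 in mesentery and 0 to 57.2 in epididymal fat on chow. The part of pancreatic cells or their RNA in these reads was not tested.

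Insr, the insulin receptor gene, did not separate the groups. It measured 508, 740.1 and 743 normalized counts in mesentery on chow and 1071, 387 and 584 on HFD. The epididymal values were 351, 467 and 636 on chow and 662, 298 and 319 on HFD. Every group overlapped its neighbour in the order of means, which ran from 680.5 ± 352 in mesentery on HFD to 426 ± 205 in epididymal fat also on HFD (SD, n = 3). Both HFD groups were highest in library A, from pool 88. The 95% interval of the diet difference was -0.89 to 0.76 in mesentery and -1.07 to 0.58 in epididymal fat, so differences of either sign lie within the replicate error.

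Igf1r, the IGF1 receptor gene, had lower values in epididymal fat, without passing the test. Its libraries measured 452, 519.7 and 596 normalized counts in mesentery on chow and 556, 360.4 and 259 on HFD. In epididymal fat they measured 229, 312 and 336 on chow and 356, 298 and 176 on HFD. The chow groups did not overlap (log2 difference -0.84, SE 0.31, unadjusted p = 0.0178, adjusted p = 0.101), and the HFD groups did. With the 2 ranges of pool numbers as a covariate the chow difference passed the threshold (adjusted p = 0.0324), as it did with a replicate block for the pool number (0.023). Relative to the summed pan-endothelial markers the tissues overlapped, at 2.14 to 4.04 Igf1r counts per 1000 marker counts in mesentery on chow and 2.17 to 3.33 in epididymal fat on chow. Per kilobase of exon, Insr exceeded Igf1r in all 12 libraries, by ratios from 1.22 to 2.76 with a median of 1.85.

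Among the adaptors, Irs2 was higher on chow in epididymal fat than in mesentery. Chow mesentery libraries measured 15.9, 12.5 and 56.3 normalized counts and chow epididymal libraries 219, 189 and 99.1, without overlap. On HFD the values were 93.5, 23.6 and 135 in mesentery and 79.8, 132 and 193 in epididymal fat, which overlapped. The log2 difference on chow was 2.77 (SE 0.69, 6.83-fold, adjusted p = 0.0178), and on HFD 0.91 (SE 0.69, adjusted p = 0.548). The difference between these 2 tissue effects was -1.87 (SE 0.97, unadjusted p = 0.0771), so a loss of the tissue difference on HFD is not shown. Libraries of pools 50 and 51 differed by 3.75 on chow and those of pool 87 by 0.80, and the value without mesentery library C was 3.41. The call was lost without epididymal library A (adjusted p = 0.0856) or B (0.0752) and without mesentery library A (0.0719) or B (0.069).

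Irs1 was the lower of the adaptor genes. It measured 15.9, 16.1 and 4.22 normalized counts in mesentery on chow and 22.4, 29.1 and 35.6 on HFD. Epididymal libraries measured 7.05, 8.69 and 63.3 on chow and 32.6, 13.2 and 10.6 on HFD. The mesentery diet groups did not overlap, but their log2 difference of 1.36 had an SE of 0.94 and an adjusted p of 0.914. In epididymal fat the highest values came from library C on chow and library A on HFD, which are the libraries of pools 87 and 88. Per kilobase of exon, Irs2 exceeded Irs1 in all 12 libraries, by ratios from 1.12 to 44.8 with a median of 5.76.

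Igfbp3, the gene of the main IGF carrier of serum, showed the largest tissue difference of the 9 members tested. Mesentery libraries measured 40568, 41797 and 26770.1 normalized counts on chow and 21095, 27001 and 21969 on HFD. Epididymal libraries measured 4737, 3857 and 2419 on chow and 694, 2407 and 1654 on HFD. No epididymal library came near a mesentery one. Group means stood at 36378 ± 8344 and 23355 ± 3188 in mesentery and 3671 ± 1170.1 and 1585 ± 859 in epididymal fat (chow, then HFD, SD, n = 3). The gene was 10.1-fold lower in epididymal fat on chow (log2 -3.33, SE 0.39, adjusted p = 1.19e-04) and 16.5-fold lower on HFD (log2 -4.05, SE 0.39, adjusted p = 3.40e-05). Both calls held in each of the 17 alternative settings and left-out libraries tried. Within pools 50 to 53 the differences were -3.27 and -3.61, and in the single libraries of pools 87 and 88 -3.47 and -4.92.

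The difference was also present relative to endothelial markers, a scale added after the data were seen. Per 1000 normalized counts of the 16 pan-endothelial markers, Igfbp3 measured 182 to 192 in mesentery on chow and 141 to 165 on HFD. In epididymal fat it measured 24 to 44.8 on chow and 12.5 to 22.9 on HFD. On this scale no group overlapped another, and each HFD group lay below the chow group of its tissue. The pan-endothelial markers themselves were not constant, since 8 of the 16 were called lower and 2 higher in epididymal fat on chow, and 10 lower and 1 higher on HFD.

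In normalized counts the diet difference of Igfbp3 did not pass the test in either tissue. The epididymal diet groups did not overlap (log2 -1.33, SE 0.39, unadjusted p = 0.00449, adjusted p = 0.209), and DESeq2 (adjusted p = 0.0365) and the fit with the range of pool numbers (0.032) did call it. Library A on HFD, from pool 88, was the lowest, and without it the log2 difference was -0.82. In mesentery the log2 difference had a 95% interval of -1.46 to 0.22, and chow library C lay just below the highest HFD library.

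Igfbp7, the gene of a secreted protein that endothelial cells make in large amounts, was the most abundant member and was lower in epididymal fat on both diets. It measured 104708, 89479 and 67363 normalized counts in mesentery on chow and 53975, 66445 and 77294 on HFD. The epididymal values were 36873, 32350.4 and 24202 on chow and 15786, 32109 and 32646 on HFD. All epididymal libraries lay below all mesentery libraries, and within a tissue the diets overlapped. It took 0.401% to 0.573% of the reads of a mesentery library and 0.113% to 0.244% of an epididymal one. The log2 difference between tissues was -1.48 on chow (SE 0.36, 2.80-fold, adjusted p = 0.0167) and -1.36 on HFD (SE 0.36, 2.56-fold, adjusted p = 0.0363). Within pools 50 to 53 the differences were -1.49 and -1.15, and in the libraries of pools 87 and 88 -1.48 and -1.77.

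The Igfbp7 calls depended on single libraries. On chow the call was lost without epididymal library B (adjusted p = 0.0606) or mesentery library A (0.0769). On HFD it was lost with edgeR (adjusted p = 0.101), with only the groups compared in the fit (0.089), without epididymal library A (0.0671) or C (0.0702), and without mesentery library A (0.0712), B (0.123) or C (0.106). Per 1000 pan-endothelial counts Igfbp7 measured 401 to 496 in mesentery and 240.2 to 348 in epididymal fat on chow, without overlap. On HFD it measured 359.8 to 549.8 and 284 to 442, which overlapped. On that scale the HFD groups of Igfbp3 stood apart and those of Igfbp7 did not.

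**Figure D2:**
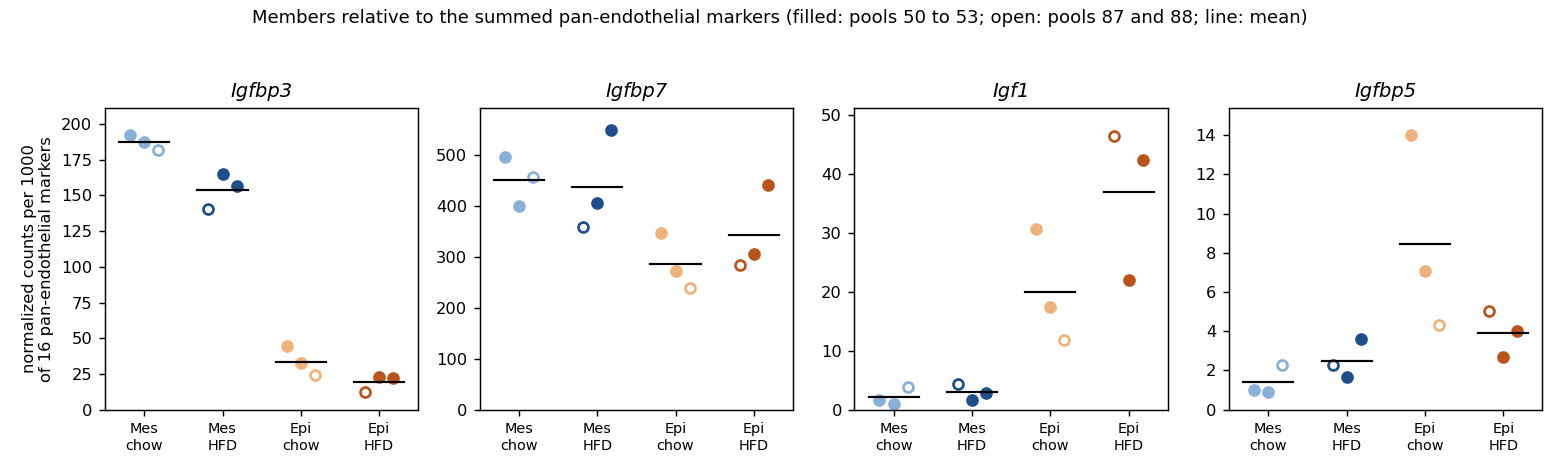
Normalized counts of Igfbp3, Igfbp7, Igf1 and Igfbp5 per 1000 summed normalized counts of 16 pan-endothelial markers (vertical axes from 0) in the 12 libraries by group, filled for pools 50 to 53 and open for pools 87 and 88, with the group mean as a line. The 4 groups of Igfbp3 are separate from one another, while the HFD groups of Igfbp7 overlap. The epididymal diet groups of Igfbp5 overlap as well.

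Igfbp4, the gene of a binding protein that mostly inhibits IGF action, was higher in epididymal fat on chow. Mesentery libraries measured 1239, 1236 and 2230.1 normalized counts on chow and 2438, 1313 and 1689 on HFD. Epididymal libraries measured 3170.3, 3703 and 2943 on chow and 3299.5, 2311 and 2457 on HFD. The chow groups did not overlap and the HFD groups did. On chow the log2 difference was 1.11 (SE 0.27, 2.16-fold, adjusted p = 0.0157); on HFD it was 0.60 (SE 0.27, adjusted p = 0.223). The difference between these tissue effects was -0.51 (SE 0.38, adjusted p = 1), so they are not shown to differ. Pools 50 and 51 gave 1.47 on chow and pool 87 gave 0.40. On HFD pools 52 and 53 gave 0.68, which passed the test within those libraries (adjusted p = 0.0362), and pool 88 gave 0.44. The chow call was lost without epididymal library A (adjusted p = 0.052) or B (0.0733) and without mesentery library A (0.0768) or B (0.065). Per 1000 pan-endothelial counts the tissues did not overlap on either diet. On that scale Igfbp4 measured 5.54 to 15.1 in mesentery and 29.2 to 31.1 in epididymal fat on chow. On HFD it measured 8.01 to 16.3 and 22 to 59.4. The marker sums were themselves lower in epididymal fat.

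Igfbp5, the gene of a binding protein that attaches to extracellular matrix, was higher in epididymal fat on chow and close between the tissues on HFD. Chow libraries measured 208, 198 and 339 normalized counts in mesentery and 1482, 839 and 434 in epididymal fat, without overlap. HFD libraries measured 341, 273 and 504 in mesentery and 281, 281 and 297 in epididymal fat, with overlap. In normalized counts the HFD epididymal libraries lay within a narrow range, and each lay below every epididymal library on chow. Per 1000 pan-endothelial counts the epididymal diet groups overlapped, at 4.31 to 14 on chow and 2.67 to 5.06 on HFD. On chow the log2 difference between tissues was 1.75 (SE 0.38, 3.37-fold, adjusted p = 0.00829), and it passed in all 17 alternatives, at 2.45 within pools 50 and 51. The single libraries of pool 87 differed by 0.35.

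The diet difference of Igfbp5 in epididymal fat was -1.50 (SE 0.38, unadjusted p = 0.00153) and did not pass after adjustment (adjusted p = 0.139). In mesentery it was 0.58 (95% interval -0.24 to 1.40). The direct test of the difference between these diet effects gave -2.09 (SE 0.53, unadjusted p = 0.00178, adjusted p = 0.414), the only member with an unadjusted p under 0.05 in that contrast. DESeq2 called both the epididymal diet difference (adjusted p = 0.00338) and the difference of diet effects (0.0225), and edgeR called neither (0.188 and 0.661). Without epididymal chow library C, the lowest of its group, limma also called the epididymal diet difference (adjusted p = 0.0335). Pools 50 to 53 gave a diet difference of -1.94 in epididymal fat and the libraries of pools 87 and 88 one of -0.63.

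Markers of other cells moved along with Igfbp5 in epididymal fat. Smooth muscle and pericyte markers summed to 13684 to 24628 normalized counts there on chow and 6652 to 12797 on HFD, against 1426 to 1752 and 1741 to 4236 in mesentery. None of these 10 genes passed the diet test and 8 were called higher in epididymal fat on chow. Adipocyte markers summed to 70836 to 94869 in epididymal fat on chow and 7280.3 to 18897 on HFD, with 3 of 10 called lower, against 6134 to 9299 and 6626 to 12330.3 in mesentery. Lymphatic endothelial markers summed to 22666 to 37637 and 11830.5 to 18154 in the same epididymal groups, against 1332 to 13032 and 2818 to 4759 in mesentery. Of these 7 genes, 5 were called higher and 1 lower in epididymal fat on chow. On HFD none was called higher and 1 lower, and none passed the diet test in epididymal fat. Fibroblast sums went the other way, with 3 of 10 genes called higher on HFD. No gene of these 4 lists was at 0 throughout a group. Their part, and that of the mesothelial and red blood cell markers given above, in the levels of Igfbp4, Igfbp5 and Irs2 was not tested.

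Set side by side per kilobase of exon, Igfbp7 made up most of the message of the 4 binding protein genes in every group. Its share was 85.7% ± 1.17 in mesentery and 92.6% ± 0.323 in epididymal fat on chow, and 87.1% ± 2.08 and 94.7% ± 1.66 on HFD (SD, n = 3). Igfbp3 held 13.8% ± 1.24 in mesentery and 4.14% ± 0.509 in epididymal fat on chow, and 12.1% ± 1.98 and 2.07% ± 0.614 on HFD. Igfbp4 held 0.46% ± 0.277 and 2.72% ± 0.483 on chow, and 0.687% ± 0.326 and 3.05% ± 1.95 on HFD. The order Igfbp7, Igfbp3, Igfbp4, Igfbp5 held for the mean shares of 3 groups, and in epididymal fat on HFD Igfbp4 stood above Igfbp3, with overlapping libraries. Lengths came from another annotation than the one used for counting and are approximate.

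**Figure D3:**
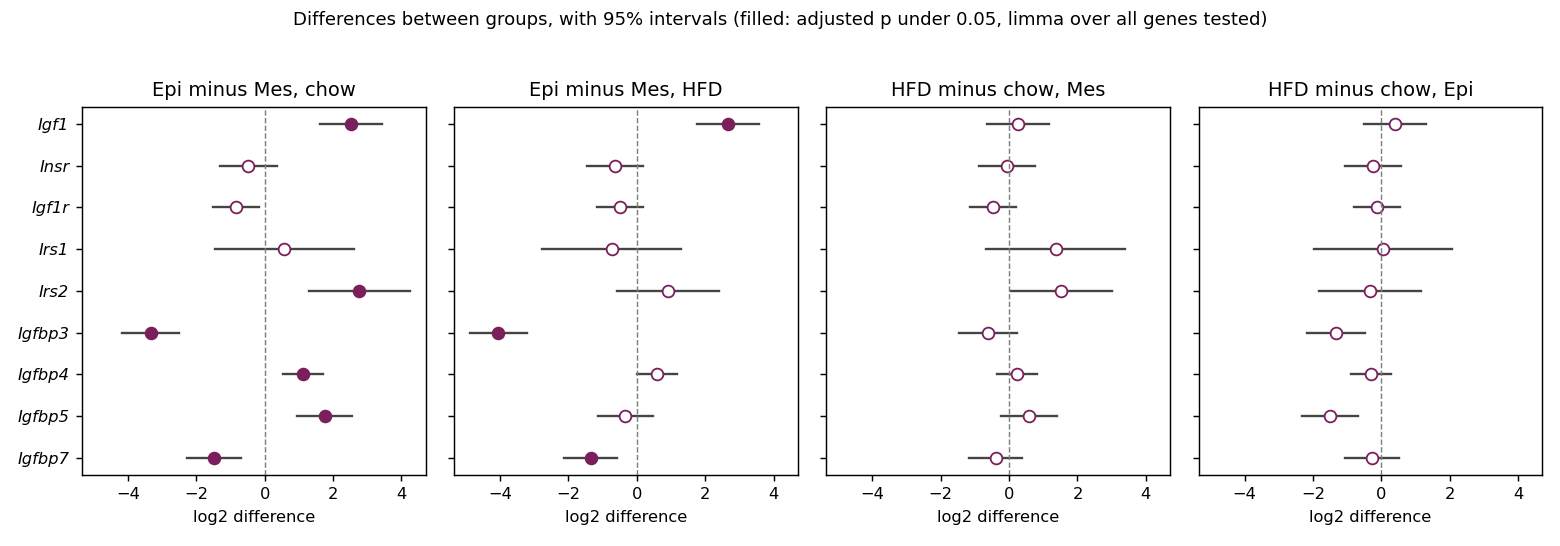
Log2 differences between groups (horizontal axes, points) with 95% intervals (bars) for the 9 members tested, in 4 contrasts: epididymal fat minus mesentery on each diet, and high fat diet minus chow in each tissue. Filled points passed an adjusted p of 0.05: 6 between tissues on chow, 3 on HFD, and none between diets.

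Between tissues 6 of the 9 tested members passed on chow, with Igf1, Irs2, Igfbp4 and Igfbp5 higher and Igfbp3 and Igfbp7 lower in epididymal fat. Over all 22238 genes tested 12.8% passed, 7.32% higher and 5.47% lower. With library columns rescaled to equal totals the genes called over the whole table were 1935 higher and 940 lower on chow, against 1627 and 1216 as deposited. On HFD 3 of 9 passed, Igf1 higher and Igfbp3 and Igfbp7 lower, against 8.34% of all genes, 4.91% higher and 3.43% lower. There the same rescaling gave 694 higher and 1267 lower in place of 1092 and 762, and moved the median log2 difference of all genes from 0.06 to -0.11. All 9 member calls kept their direction and passed under the rescaling. Groups did not overlap for 7 of 9 members on chow and 3 of 9 on HFD, where 28.7% and 26.4% of all genes showed no overlap. The median log2 difference of the 9 members was 0.58 on chow and -0.49 on HFD, beside -0.08 and 0.06 over all genes tested. All 9 averaged 12.1 normalized counts or more in every group, so none entered the test through a single high group.

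With 1 mean per group and all 12 libraries, no member passed the test between diets with limma or edgeR, and DESeq2 called Igfbp3 and Igfbp5 in epididymal fat. As given above, limma called Igfbp3 with the range of pool numbers as a covariate and Igfbp5 without epididymal chow library C. In mesentery 1 of 9, Irs2, had an unadjusted p under 0.05 in limma (adjusted p = 0.791), and 1, Irs1, showed no overlap, beside 6.15% of all genes under 0.05, 9.61% without overlap and 0.0135% called. In epididymal fat 2 of 9, Igfbp3 and Igfbp5, had an unadjusted p under 0.05 and no overlap, beside 6.94% of all genes under 0.05, 13.5% without overlap and 0.549% called. For the difference of diet effects none of 9 passed with limma or edgeR and 1, Igfbp5, with DESeq2, beside 0.0045% of all genes with limma. Median log2 differences between diets were 0.22 in mesentery and -0.27 in epididymal fat for the 9 members, and 0.00 and 0.10 for all genes tested. The widest 95% intervals belonged to Irs1 and Irs2, the members with the lowest levels tested.

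The wider pathway was taken from a list of 80 genes, of which 78 were in the table and 75 could be tested. Igfbp1 and Irs4 were not analysed here. On chow 10 of the 75 were called higher and 9 lower in epididymal fat, beside 7.32% and 5.47% of all genes, and on HFD 3 higher and 8 lower, beside 4.91% and 3.43%. Between diets none passed with limma in either tissue, with unadjusted p under 0.05 for 5 in mesentery and 8 in epididymal fat, beside 6.15% and 6.94% of all genes. The difference of diet effects gave none, with 4 under 0.05 before adjustment, beside 4.71% of all genes. The median log2 tissue difference of the 75 genes was 0.05 on chow and 0.01 on HFD.

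Beside the insulin genes, the named genes of this list were Igfbp2 and Irs3 on chow and Htra1 and Stc1 on HFD. Htra1, a secreted serine protease that cleaves IGF binding proteins, measured 148, 148 and 324 normalized counts in mesentery and 695, 1094 and 873 in epididymal fat on HFD. The groups did not overlap, and the log2 difference was 2.18 (SE 0.38, adjusted p = 0.00342). On chow Htra1 was higher in epididymal fat too, at 94.5, 88.7 and 201 and 2148, 1318 and 1124 (log2 3.62, adjusted p = 5.25e-05). Stc1, which encodes a stanniocalcin that inhibits the binding protein protease Pappa, went the other way. It measured 1010.1, 2219 and 1436 in mesentery and 386, 375 and 484 in epididymal fat on HFD (log2 -1.84, SE 0.31, adjusted p = 0.00275), and 1661, 2741 and 1354 against 465, 288 and 326 on chow (log2 -2.38, adjusted p = 2.78e-04). Every epididymal library was below every mesentery library for Stc1. Stc2, the other stanniocalcin gene of the list, picked after its values were seen, was at higher values in epididymal fat. It measured 2.69 to 19.7 normalized counts in mesentery and 49 to 120 in epididymal fat on chow. On HFD Stc2 measured 0 to 9.88 in mesentery and 13.5 to 34.7 in epididymal fat.

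Igfbp2, another IGF binding protein gene, measured 1.14, 0 and 19.7 normalized counts in mesentery and 82.2, 119 and 65.4 in epididymal fat on chow (log2 4.62, SE 1.42, adjusted p = 0.0482). Its call held in 6 of 16 alternatives only. The settings that lost it included edgeR (adjusted p = 0.238) and DESeq2 (0.114). It was also lost without epididymal library A (0.14), B (0.167) or C (0.0698), and without mesentery library A (0.144) or B (0.152). Without mesentery library C the log2 difference of Igfbp2 was 5.90. Irs3, an adaptor gene known for its expression in fat cells of rodents, measured 17.1, 12.5 and 0 in mesentery and 93.2, 109 and 106 in epididymal fat on chow (log2 4.05, SE 0.94, adjusted p = 0.0125). That call was lost with edgeR (adjusted p = 0.0527), with only the groups compared (0.0513) and without epididymal library B (0.0546), and its size was 4.81 without mesentery library A and 2.72 without C. The adipocyte marker sums given above were also higher in epididymal fat on chow, and their part in the Irs3 level was not tested.

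The branches of the pathway inside the cell held both directions between tissues, and the genes named in this paragraph were chosen after their values were seen. Of 10 genes for phosphoinositide 3-kinase, PDK1 and AKT, 1 was higher and 1 lower in epididymal fat on chow. These were Akt2, an AKT kinase gene known for glucose uptake (higher on chow, 253, 266 and 319.6 in mesentery and 847, 722 and 574 in epididymal fat, adjusted p = 0.00613) and Pik3r3, a regulatory subunit gene (-1.82 on chow, adjusted p = 6.05e-04, and -1.17 on HFD, 0.016). The Pik3r3 call on HFD was lost without epididymal library C (adjusted p = 0.0782) or mesentery library B (0.0859). Foxo1, the FOXO factor best known in endothelium, was lower in epididymal fat on both diets (log2 -0.70, adjusted p = 0.0348, and -1.17, adjusted p = 0.00293). Its libraries measured 2265, 2641 and 1958 and 2139, 1832 and 1980.1 normalized counts in mesentery, and 1562, 1417 and 1239 and 725, 1177 and 801 in epididymal fat, on chow and the high fat diet. All epididymal libraries were below all mesentery libraries, as the pan-endothelial sums were. The Foxo1 call on chow was lost with edgeR (adjusted p = 0.137), with columns rescaled (0.0595), with a replicate block (0.0503), without epididymal library A (0.0635), B (0.102) or C (0.093), and without mesentery library A (0.0992) or B (0.123), while its call on HFD held in every alternative run. Slc2a4, the gene of the insulin-responsive glucose transporter of fat and muscle, was higher on chow (log2 2.98, adjusted p = 0.00426). It measured 26.2, 25.1 and 81.7 in mesentery and 327, 299.7 and 290.03 in epididymal fat on chow, and 13.1, 16.6 and 48.4 and 42.7, 91.7 and 60.9 on HFD, along with the adipocyte marker sums. Of 14 genes of the mTOR branch 2 were higher on chow, the mTOR inhibitor gene Deptor and the translation repressor gene Eif4ebp1. None of the 14 passed on HFD, where 4 had an unadjusted p under 0.05 with limma, beside 4661 of all 22238 genes tested. The Deptor call was lost without epididymal library A (adjusted p = 0.0569) and without mesentery library A (0.0633) or B (0.055).

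The genes with profiles most like each member over the 12 libraries were found among 15310 genes, by the root mean square difference of log2 values scaled to mean 0 and SD 1. The closest matches belonged to Igfbp3, with 0.127 for Acvrl1, an endothelial receptor gene of the BMP pathway, and 0.150 for Ntf3, a neurotrophin gene. Igf1 was closest to Neu1, a lysosomal sialidase gene (0.174), and Cmc1 (0.223). Irs2 was nearest to Icosl (0.211) and Slc45a3 (0.352), and Igfbp7 to Nrp1, a VEGF co-receptor gene (0.221), and Setd1a (0.224). Igf1r had Gtdc1 (0.298) and Cep112 (0.349), Igfbp4 had Cenpv (0.332) and Cpe (0.335), and Igfbp5 had C2 (0.368) and Csrp1 (0.384). The most distant neighbours were those of Insr, Golga3 (0.386) and Zfp609 (0.461), and of Irs1, Fam120c (0.465) and Arr3 (0.469). These are descriptions over libraries that share 4 groups, pools and depth.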

How the data were processed

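The deposited table gives each gene's reads in a library divided by that library's size factor, a signal the authors call normalized counts. Per the submitters' processing notes, reads were aligned with STAR 2.7.9a to mm39, counted with featureCounts of Subread and processed with DESeq2 1.34.0; annotation and strand setting are not given in the sources used here. Every deposited value was a whole number of reads times 1 factor per library (100% within 1e-06), so reads could be recovered. The lowest total of a gene was 51 reads.

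Groups came from the sample titles. Differences were tested in R 4.3.3 with limma 3.58.1 (lmFit, eBayes with a trend) on log2(normalized count + 1) for the 22238 genes that averaged 10 or more, with 1 mean per group, 5 contrasts and Benjamini-Hochberg adjustment over all genes tested. It was tested on simulated data. edgeR 4.0.16 and DESeq2 1.42.0 on recovered reads, other pseudocounts and filters, columns rescaled to equal totals, fits within pool numbers 50 to 53 and left-out libraries were alternatives, and levels per pan-endothelial count were added after the data were seen. Values per kilobase used exon lengths of GENCODE M21, and promoters the RefSeq table on GRCm38.p6; since the reads were aligned to another build, no coordinates are given for counted genes.

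The members and gene lists were chosen with earlier results of these data known. Tests are printed for members with an adjusted p under 0.05 or without overlap of groups, and for up to 4 other pathway genes per contrast with the largest called difference plus Ins1 and Ins2; other values of a test stand where 2 contrasts are compared or to show precision, and any further gene is marked as picked after seeing its values. Likeness names the 2 nearest genes per member. Not every pathway gene is reported or plotted here.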

Additional observations from a re-analysis of the deposited data

How the results depend on the processing

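No difference of a named gene that was refitted changed sign. With columns rescaled the tissue calls on HFD over all genes turned from mostly higher to mostly lower in epididymal fat, 694 and 1267 in place of 1092 and 762. The number of genes called between diets in mesentery, 3 with the main test, was 150 with DESeq2, 1 with edgeR, 7 with a minimum mean of 50, 20 within pools 50 to 53, 1 with only the groups compared, and 1 to 36 with 1 library left out. In epididymal fat, 122 became 563 with DESeq2, 29 with edgeR, 30 within pools 50 to 53, 228 with only the groups compared, and 24 to 169 with 1 library left out. Between tissues on chow, 2843 became 4507 within pools 50 to 53 and 1512 to 3305 with 1 library left out. On HFD, 1854 became 2931 with DESeq2, 1021 with edgeR, and 726 to 1747 with 1 library left out. For the difference of diet effects, 1 became 130 with DESeq2, 3 with a minimum mean of 50, 11 within pools 50 to 53, and 1 to 18 with 1 library left out. The cause was not tested. In epididymal fat the called diet genes were 93 higher and 29 lower, and 67 and 42 with columns rescaled.

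The labels do not say that a shared letter or pool number marks shared mice. Deviations from group means correlated by 0.03, 0.53 and 0.58 between the tissues of pools 50, 51 and 87, and by -0.15, 0.15 and -0.11 for pools 88, 52 and 53; shared letters across diets gave -0.68 to 0.44. With a replicate block for the number or letter, 4 and 104 genes were called between diets, 2816 and 1890 between tissues, and 2 for the difference of diet effects. With it Igf1r passed on chow (adjusted p = 0.023), and Foxo1 no longer did (0.0503). Of the gene differences refitted with the block, no other changed its call. Igf2, Irs1 and the insulin genes in epididymal fat had few reads or wide intervals, and the part of depth was not tested.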

Other observations

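Pathway genes outside the comparisons above, chosen after their values were seen, are given as values. Igf2r, the receptor that clears IGF2, measured 386 to 977 and 468 to 831 normalized counts in mesentery (chow, then HFD) and 486 to 561 and 379 to 569 in epididymal fat, so all groups overlapped. Igfbp6, a binding protein gene with a preference for IGF2, was at 1996 to 3929.5 and 1204 to 2788 in mesentery and 1603 to 4708 and 1711 to 3507 in epididymal fat, also with overlap throughout.

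Gab1, an adaptor gene downstream of several receptor kinases, showed opposite diet differences in the tissues before adjustment only. In mesentery it measured 207, 203 and 169 on chow and 355, 223 and 264 on HFD. In epididymal fat it measured 336, 314 and 246 on chow and 175, 225 and 202 on HFD. The diet groups overlapped in neither tissue. The log2 difference of the diet effects was -1.08 (SE 0.34, unadjusted p = 0.00661, limma), with an adjusted p of 0.656. Klf15, a transcription factor gene of fat and glucose metabolism, gave -2.21 in the same contrast (SE 0.89, unadjusted p = 0.0266, limma), with an adjusted p of 0.959, and -1.13 within pools 50 to 53. Adipocyte marker sums in epididymal fat were 70836 to 94869 on chow and 7280.3 to 18897 on HFD, and their part in the Klf15 values was not tested.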
